A study of Homo sapiens with 12 samples.

Results

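Mucins are large, heavily O-glycosylated proteins that coat epithelial surfaces, and this account follows 10 mucin genes through an ovarian and 2 colorectal cancer cell lines. The members are MUC1, MUC2, MUC4, MUC5AC, MUC5B, MUC6, MUC12, MUC13, MUC16 and MUC20, chosen by gene symbol from a count table of 57500 gene IDs, and each matched 1 row. RNA sequencing after removal of ribosomal RNA gave 12 libraries in 4 groups of 3, each a biological replicate by its title. The ovarian cancer line PEO4 was grown in RPMI 1640, either as the control or with recombinant human TGF-β at 10 ng/mL for 6 days. SW480 comes from a primary colorectal tumour and SW620 from a metastasis of the same patient, and both were grown untreated in DMEM. All media held fetal bovine serum, penicillin and streptomycin. The design pairs SW620 with SW480 and treated PEO4 with its control. PEO4 and the SW lines differ in medium as well as in origin, so line and medium cannot be told apart in any comparison across them. Each line stands for 1 culture history, so every error and p-value measures the spread between cultures of that line.

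Transmembrane mucins (MUC1, MUC4, MUC12, MUC13, MUC16 and MUC20 among the members) stay anchored at the cell surface, where their glycosylated outer parts form a barrier and their short tails can signal. Secreted gel-forming mucins (MUC2, MUC5AC, MUC5B and MUC6) link into polymers and make up mucus. In the gut MUC2 is the product of goblet cells, MUC5AC and MUC6 belong to the stomach lining, and MUC16 carries the CA-125 epitope used as a serum marker of ovarian cancer.

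The library totals ran from 14531420 to 22028956 counts. Replicate 2 of SW480 and of SW620 had the lowest totals, the highest mitochondrial share within its line and the lowest share of counts in protein-coding genes (93.9% and 92.7%). Levels are given as CPM, the count scaled to the library total times its TMM factor, and a count of 3 then equals 0.139 to 0.175 CPM. The labels were checked against markers of the lines. The summed level of 7 colorectal markers was 1.26 to 4.40 CPM in PEO4 control, 50.7 to 79.3 CPM in SW480 and 413 to 610 CPM in SW620. The summed level of 6 ovarian markers was 865 to 922 CPM in PEO4 control and 46.5 to 99.3 CPM over the SW libraries. Of the 6 ovarian markers, 4 were lower and 1 higher in SW480 than in PEO4 control, and 3 were lower and 2 higher in SW620 (edgeR). MECOM was the higher gene in SW480, and MECOM and SOX17 were those in SW620, all with means of at most 3.02 CPM. Of the 7 colorectal markers, 3 of 4 tested were higher in SW480 and 5 of 5 tested in SW620, and 0 were lower. PAX8 and CDX2 averaged 555 and 0.0555 CPM in PEO4 control beside 44.4 and 18.8 CPM in SW480. In RNA from whole cultures, fewer expressing cells and less RNA per cell cannot be told apart.

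The 250 bases before the start of transcription are shown for MUC16 and MUC4, the members with the highest levels in PEO4, and for MUC1 and MUC13, the pair with the highest levels per length in SW620. They come from RefSeq on GRCh38.p14, which held a promoter for 6 of the 10 members, and all 4 genes lie on the minus strand. Capitals mark CAGAC or GTCTG (the core bound by SMAD proteins, which carry the TGF-β signal), CAGGTG or CACCTG (bound by the SNAI and ZEB repressors), GGGCGG or CCGCCC (bound by SP1) and TTTAT or ATAAA (the core of the CDX2 site), read on both strands.
MUC16, chr19:9065752-9066001: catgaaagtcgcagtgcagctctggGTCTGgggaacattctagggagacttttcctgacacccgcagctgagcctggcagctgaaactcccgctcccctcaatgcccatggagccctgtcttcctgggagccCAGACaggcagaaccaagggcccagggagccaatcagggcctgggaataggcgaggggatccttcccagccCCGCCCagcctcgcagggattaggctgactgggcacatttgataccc
MUC4, chr3:195811930-195812179: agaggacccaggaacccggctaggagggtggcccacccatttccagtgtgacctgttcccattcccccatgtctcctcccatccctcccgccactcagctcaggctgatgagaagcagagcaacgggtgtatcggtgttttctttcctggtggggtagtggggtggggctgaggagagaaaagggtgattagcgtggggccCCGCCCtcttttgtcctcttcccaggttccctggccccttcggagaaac
MUC1, chr1:155192916-155193165: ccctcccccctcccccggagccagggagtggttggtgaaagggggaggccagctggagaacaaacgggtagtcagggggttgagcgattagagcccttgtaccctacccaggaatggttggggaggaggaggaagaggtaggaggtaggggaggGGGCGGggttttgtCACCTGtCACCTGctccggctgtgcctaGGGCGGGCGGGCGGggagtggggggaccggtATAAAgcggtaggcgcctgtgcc
MUC13, chr3:124934752-124935001: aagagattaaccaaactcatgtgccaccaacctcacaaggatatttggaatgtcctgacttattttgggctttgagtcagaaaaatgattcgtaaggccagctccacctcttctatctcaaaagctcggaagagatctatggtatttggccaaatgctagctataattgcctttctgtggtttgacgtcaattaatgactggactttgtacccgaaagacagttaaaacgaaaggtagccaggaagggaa

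The MUC16 window held 2 SMAD cores and 1 SP1 motif, and the MUC4 window held 1 SP1 motif. RefSeq held another MUC16 start, 29.1 kb beyond the GENCODE 29 gene, which is not shown. The window of that start held 2 SMAD cores, 1 SNAI and ZEB motif and 0 SP1 motifs. The MUC1 window held 4 SP1 motifs, some overlapping each other, 2 SNAI and ZEB motifs and 1 CDX2 core, and the MUC13 window held none of the 4 motifs. Over 35116 RefSeq promoters cut to the same 250 bases, 38% held the SMAD core, 17.5% the SNAI and ZEB motif, 42.6% the SP1 motif and 32.7% the CDX2 core. A match is a description of the letters and not a binding site. The RefSeq start of MUC16 used here lies 84.4 kb beyond the end of the gene in GENCODE 29, and that of MUC13 lies 19.1 kb inside it.

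MUC16 and MUC4 were the highest members in PEO4, and MUC1 and MUC13 were the highest per length in SW480 and in SW620. By CPM without regard to length MUC16 was also the highest member in SW480, at a mean of 40.9 CPM, and MUC20 and MUC6 followed the leading pair per length in both PEO4 control and SW620. To compare genes, CPM was divided by the length of the merged exons in kilobases. In PEO4 control the order began with MUC16 at 129 ± 39.6 CPM per kb (SD, n = 3), MUC4 at 21.5 ± 8.01, MUC20 at 4.57 ± 1.97 and MUC6 at 3.99 ± 1.70. MUC16 and MUC4 did not overlap, and MUC20 and MUC6 did. The other 6 members were at or under 0.200 CPM per kb in that group. With TGF-β, MUC16 at 54.9 ± 22.1 CPM per kb and MUC4 at 32.1 ± 10.8 overlapped, and MUC6 stood at 0.989 ± 0.353. In SW480 no member exceeded the 1.69 ± 0.225 CPM per kb of MUC1, followed by MUC13 at 1.10 ± 0.257 and MUC16 at 0.934 ± 0.130, which overlapped. In SW620, MUC13 at 7.07 ± 1.39 CPM per kb led MUC1 at 5.10 ± 0.799 without overlap. MUC20 and MUC6 followed at 1.57 ± 0.857 and 1.27 ± 0.503. Of the 50-base words of the longest transcript in GENCODE 29, 42.4% recurred within MUC1, 28.25% within MUC4, 1.07% within MUC16 and 0% within MUC13. Reads there may have been lost, so the order per length is uncertain, also that of MUC13 and MUC1.

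**Figure D1:**
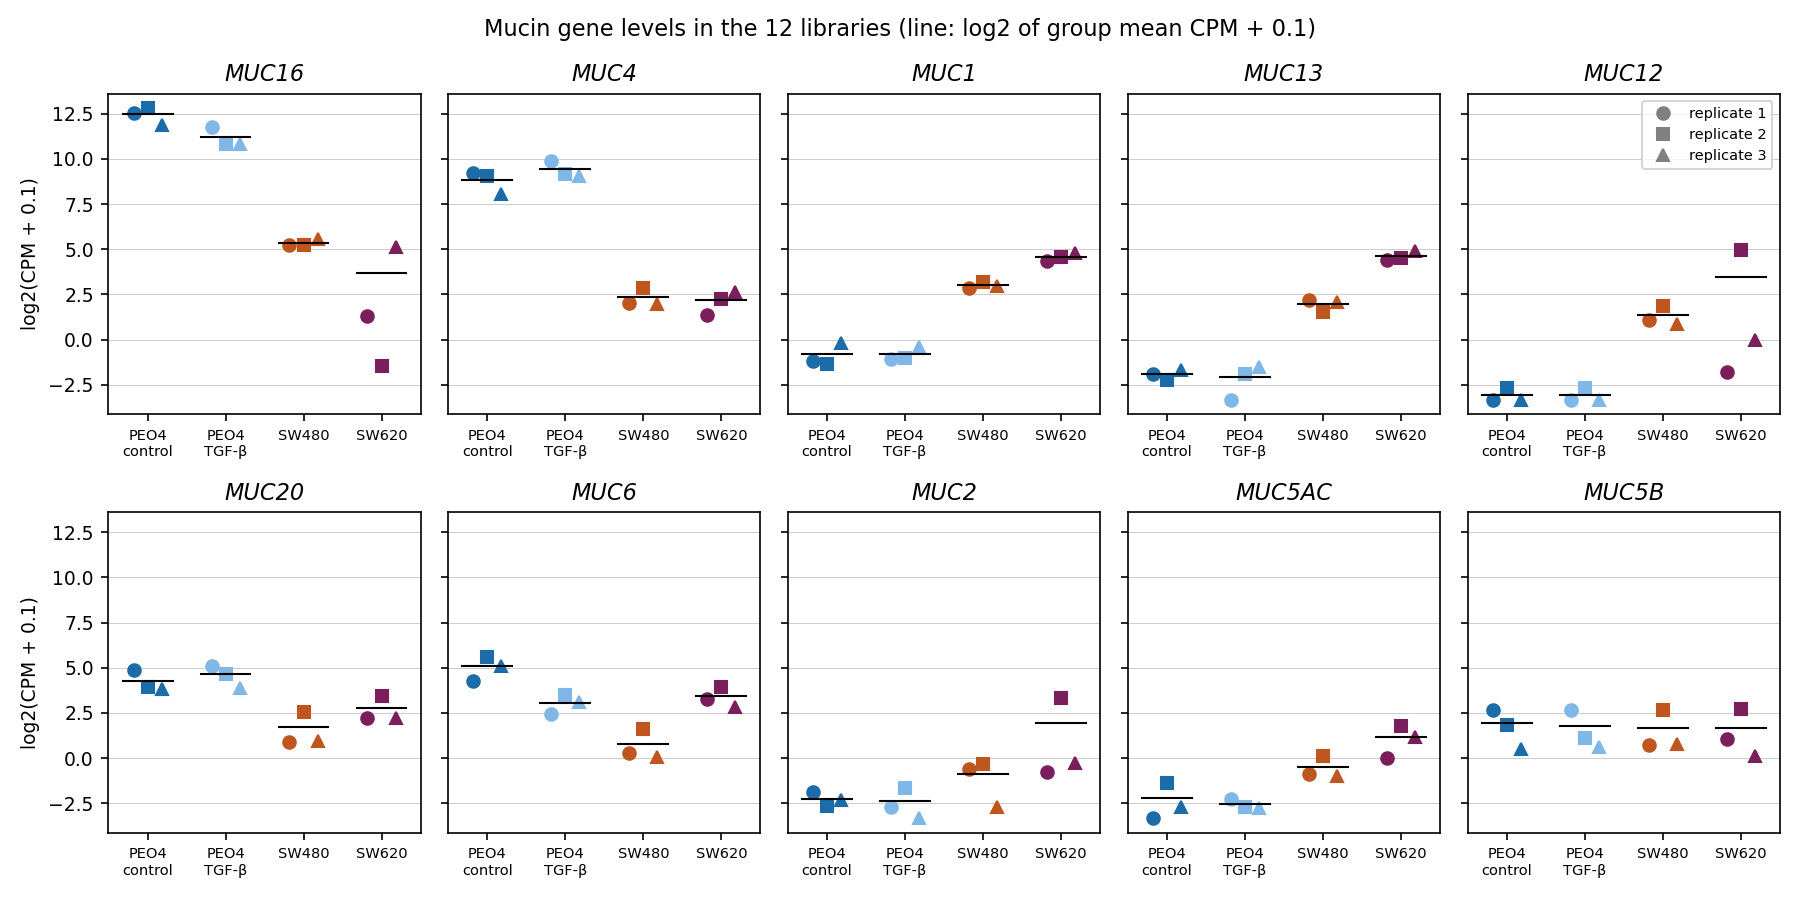
Level of each of the 10 mucin genes in the 12 libraries, as log2 of CPM plus 0.1 on the vertical axis, by group on the horizontal axis; symbols give the replicate number and the line is the log2 of the group mean CPM plus 0.1. MUC16 and MUC4 were highest in both PEO4 groups, MUC1 and MUC13 in SW620, and MUC12 and MUC2 had 1 high library, replicate 2 of SW620.

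**Figure D2:**
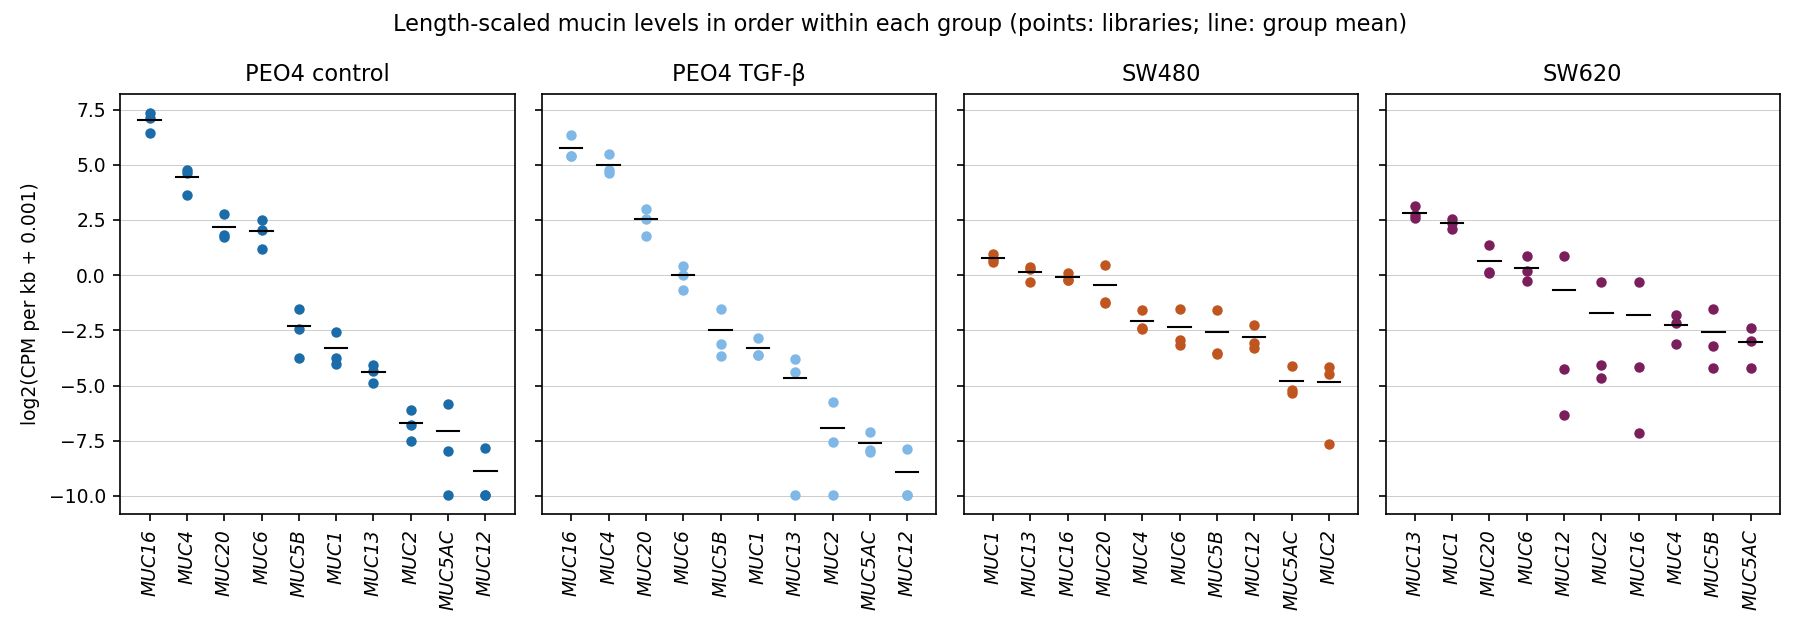
The same genes as log2 of CPM per kilobase of merged exons plus 0.001, ordered from the highest to the lowest group mean within each of the 4 groups; points are libraries and lines are group means. The order starts with MUC16 in both PEO4 groups, with MUC1 in SW480 and with MUC13 in SW620.

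MUC16 (chr19:8848844-8981342, minus strand, GENCODE 29 on GRCh38) is the longest member and binds mesothelin on other cells. In PEO4 control its level was 6010, 7192 and 3776 CPM in replicates 1 to 3, and it took 0.357% to 0.677% of all counts. By CPM per kb it ranked 167 among 19737 protein-coding genes. With TGF-β the level was 3527, 1847 and 1845 CPM. All treated libraries lay below all control libraries, although control replicate 3 and treated replicate 1 were close. The fitted log2 change was -1.27 ± 0.30 (SE), and it missed the threshold of 0.05 (adjusted p = 0.0701, edgeR's quasi-likelihood test, Benjamini-Hochberg). Scaling by library totals gave an adjusted p of 0.0471, and leaving out control replicate 3 or treated replicate 1 gave 0.0417 and 0.0363 in the same test. Leaving out control replicates 1 or 2 gave edgeR adjusted p of 0.0734 and 0.309, and leaving out treated replicates 2 or 3 gave 0.247 and 0.161. Over all alternatives the edgeR and DESeq2 adjusted p ran from 6.26e-12 to 0.827, always with a lower fitted level under TGF-β.

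In the SW lines MUC16 was far lower, and 1 SW620 library stood apart from the other 2. SW480 had 755, 638 and 924 counts (38.0, 37.3 and 47.5 CPM), which were close to each other. SW620 had 49, 5 and 758 counts (2.38, 0.270 and 35.2 CPM), so replicate 3 came within reach of SW480 while the others lay far below it. The groups did not overlap, and the fitted change in SW620 against SW480 was -1.68 ± 1.07 with an adjusted p of 0.280 by edgeR's quasi-likelihood test. Without replicate 3 of SW620 the change was -4.89 and the adjusted p 0.000143 in that test. Against PEO4 control, MUC16 had a log2 change of -7.10 ± 0.30 in SW480 (adjusted p = 6.48e-09, edgeR). In SW620 the log2 change against PEO4 control was -8.74 ± 1.36 (adjusted p = 0.000336, edgeR), and without replicate 3 of SW620 it was -12.02.

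Other genes with high levels in PEO4 also had counts in that library, and whether these counts come from PEO4 was not tested. The measure was the median level, as a percent of the PEO4 control mean, of 41 genes with at least 50 CPM in PEO4 control that ranked lowest in the other 5 SW libraries, with all members left out. It was chosen after seeing the data, and since the other 5 libraries pick the genes, it is a description with no test. The median was 0.973% in SW620 replicate 3, with quartiles of 0.818% and 1.18%. In the others it was 0.193% and 0.0440% (SW620 replicates 1 and 2) and 0.247%, 0.286% and 0.207% (SW480 replicates 1 to 3). The 3 genes of the set with the most CPM in PEO4 were SPOCK2, BGN and UCA1, with 966, 502 and 457 counts in SW620 replicate 3. They had counts in the other SW libraries too, at 33 to 195, 17 to 109 and 13 to 116.

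MUC16 itself stood at 0.663% of its PEO4 control level in SW620 replicate 3, inside the range of single genes of the set (0.542% to 1.73%) and under their lower quartile of 0.818%. A share of 0.973% of the PEO4 control level would amount to 1112 MUC16 counts there (765 to 1450 over the 3 control libraries), beside 758 observed. In SW480 the same calculation gave 236, 218 and 206 counts beside 755, 638 and 924 observed, so the observed counts were above it in every SW480 library. In SW620 replicates 1 and 2 it gave 177 and 33.2 counts beside 49 and 5 observed, so the observed counts were below it in both. Where the PEO4-like counts come from was not tested.

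**Figure D3:**
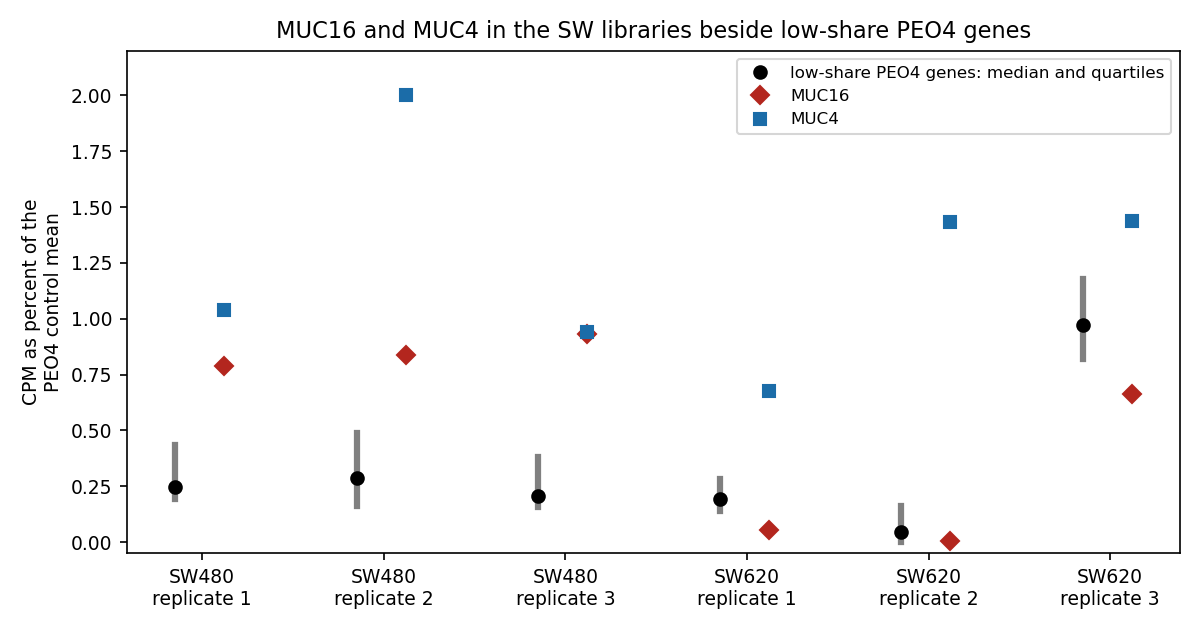
Level of MUC16 (diamonds) and MUC4 (squares) in each of the 6 SW libraries, as a percent of the PEO4 control mean CPM, beside the median (circle) and quartiles (bar) of the low-share PEO4 genes. SW620 replicate 3 has the highest median, 0.973%, and MUC16 at 0.663%, whereas in SW480 MUC16 lies above the median in all 3 libraries.

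MUC4 (chr3:195746765-195812277, minus strand), a membrane mucin that binds the receptor ERBB2, was higher in PEO4 than in either SW line. Its level was 586, 524 and 264 CPM in PEO4 control and 951, 578 and 528 CPM with TGF-β. Control replicate 3 was the lowest and treated replicate 1 the highest, and the groups overlapped. The fitted change with TGF-β was 0.55 ± 0.30 with an adjusted p of 0.401 by edgeR. SW480 had 4.02, 7.19 and 3.86 CPM and SW620 2.43, 4.69 and 6.12 CPM. These overlapped, with a log2 change of -0.16 ± 0.40 and an adjusted p of 0.801 by edgeR. Against PEO4 control, MUC4 had a log2 change of -6.50 ± 0.37 in SW480 (adjusted p = 6.58e-08, edgeR), and in SW620 it was -6.57 ± 0.42 (adjusted p = 7.59e-07, edgeR). In SW620 replicate 3 the PEO4-like share would give 89.4 of the 132 MUC4 counts.

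MUC1 (chr1:155185824-155192916, minus strand) is the broadly expressed epithelial membrane mucin. It was near the limit of detection in PEO4, with 6, 5 and 15 counts in the control and 7, 7 and 13 counts with TGF-β, and was not tested there. SW480 had 7.04, 9.12 and 7.71 CPM and SW620 had 20.3, 24.1 and 27.8 CPM. Every SW620 library was above every SW480 library, and MUC1 rose by 1.62 ± 0.19 on the log2 scale (adjusted p = 0.000289, edgeR), a 3.07-fold difference. Against PEO4 control MUC1 was higher by 4.06 ± 0.38 in SW480 (adjusted p = 3.39e-06, edgeR) and by 5.77 ± 0.33 in SW620 (adjusted p = 3.45e-07, edgeR). The highest PEO4 counts of MUC1 were in replicate 3 of both groups. There the share of SW-like transcripts, taken in the same way, was 0.928% and 1.07% and would give 3.40 and 4.14 of the 15 and 13 counts, while it was 0.242% to 0.465% in the other PEO4 libraries. The origin of the remaining MUC1 counts was not tested.

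MUC13 (chr3:124905442-124953819, minus strand), a membrane mucin of the intestinal lining, had the lowest adjusted p of the members in SW620 against SW480. SW480 had 89, 48 and 82 counts (4.48, 2.81 and 4.22 CPM) and SW620 had 435, 422 and 652 counts (21.2, 22.7 and 30.2 CPM). The groups lay far apart, and MUC13 rose by 2.70 ± 0.24 on the log2 scale, or 6.51-fold (adjusted p = 5.73e-05, edgeR). In PEO4 it had at most 5 counts in any library. PEO4 control had 9 counts in all. By summed and scaled counts the level was 23.4 times as high in SW480 (95% interval of counting error 12.1 to 51.8) and 150 times as high in SW620 (78.7 to 328). The edgeR fits gave log2 changes of 4.49 and 7.29 (adjusted p = 6.01e-06 and 8.77e-08).

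MUC12 (chr7:100969623-101018949, plus strand), another intestinal membrane mucin, was high in a single SW620 library. SW480 had 40, 61 and 34 counts, which lay near each other. SW620 had 4, 586 and 19 counts, with replicate 2 above and the other 2 below all SW480 libraries. The fitted change was 2.18 ± 1.33 with an adjusted p of 0.261 by edgeR, and without replicate 2 of SW620 it turned to -2.09 with an adjusted p of 0.0312. PEO4 had 1 count in 3 control libraries and 1 in 3 treated ones. By summed and scaled counts SW480 was 130 times as high as PEO4 control, with an interval of counting error from 22.9 to 5155. The edgeR fit gave a log2 change of 6.61 (adjusted p = 2.43e-05). Without control replicate 2, the only control library with a count, the fitted log2 change moved from 6.61 to 8.50. In the SW620 comparison with PEO4 control MUC12 did not pass the filter on low counts. In GENCODE 29, 61.5% of the 50-base words of its longest transcript recur within it and 194 bases of its exons overlap the antisense gene AC105446.1, so reads there may have been lost or shared.

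MUC20 (chr3:195720882-195741123, plus strand) lies next to MUC4 and binds the receptor MET. Its counts are uncertain because 69.1% of its 50-base words occur in other genes, 46.6% in the pseudogene MUC20P1. MUC20P1 averaged 5.33 and 7.24 CPM in untreated and treated PEO4, and 0.403 and 1.17 CPM in SW480 and SW620. MUC20 exons also share 1820 bases with MUC20-OT1 on the same strand, which averaged 44.1 to 59.5 CPM over the groups. Reads there may have been lost or shared. For MUC20 itself, PEO4 control had 29.03, 15.1 and 14.1 CPM and PEO4 with TGF-β 34.4, 24.8 and 14.7 CPM. These overlapped, with a fitted change of 0.32 ± 0.33 (adjusted p = 0.675, edgeR). SW480 had 1.76, 5.85 and 1.85 CPM and SW620 4.53, 10.9 and 4.64 CPM, with replicate 2 the highest in both lines. The change of 1.11 ± 0.54 had an adjusted p of 0.161 by edgeR, without SW480 replicate 2 it was 1.89 with 0.0178, and without SW620 replicate 2 it was 0.62 with 0.387. Against PEO4 control, MUC20 had a log2 change of -2.62 ± 0.45 in SW480 (adjusted p = 0.000353, edgeR), which was -3.42 without SW480 replicate 2. In SW620 the log2 change was -1.38 ± 0.40 (adjusted p = 0.0138, edgeR). Without PEO4 control replicate 1 it was -1.02 with an adjusted p of 0.0596, and without SW620 replicate 2 it was -2.03.

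Of the secreted mucins, MUC6 (chr11:1012821-1036706, minus strand), a gel-forming mucin of gastric glands, was the only member that passed the test with TGF-β. PEO4 control had 329, 824 and 671 counts (18.8, 47.5 and 34.7 CPM) and PEO4 with TGF-β 97, 205 and 170 counts (5.34, 11.3 and 8.39 CPM). All treated libraries were below all controls, and MUC6 fell by 2.06 ± 0.35 on the log2 scale, a 4.17-fold difference (adjusted p = 0.0218, edgeR). The call was lost without any 1 of 4 libraries: the edgeR adjusted p was 0.108 without control replicate 2 and 0.0832, 0.0576 and 0.0673 without treated replicates 1, 2 and 3. Beside it, the summed level of 3 mesothelial markers went from 179 to 194 CPM in the control to 63.0 to 80.6 CPM with TGF-β. UPK3B made up nearly all of that sum and fell from 185 ± 10.3 to 68.7 ± 11.5 CPM (adjusted p = 0.00145, edgeR). The other 2 were not lower, with means of 3.56 and 5.37 CPM for LRRN4 and 0.262 and 0.447 CPM for CALB2. Of 5 ovarian markers tested, 2 were also lower with TGF-β and 0 higher, beside 0.991% of all genes lower. WT1 went from 215 to 159 CPM and EMX2 from 109 to 79.5 CPM (adjusted p = 0.0274 and 0.0235, edgeR). The part of these markers in the result was not tested.

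Between the SW lines MUC6 had 22, 50 and 18 counts in SW480 and 197, 285 and 153 in SW620. Every SW620 library was above every SW480 library, and MUC6 rose by 2.72 ± 0.48 on the log2 scale (adjusted p = 0.00260, edgeR), and by 3.39 without SW480 replicate 2. Against PEO4 control the log2 change was -4.36 ± 0.44 in SW480 (adjusted p = 6.31e-06, edgeR), which was -5.06 without SW480 replicate 2. In SW620 it was -1.51 ± 0.37 (adjusted p = 0.00583, edgeR).

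MUC2, MUC5AC and MUC5B share the chromosome 11 cluster with MUC6 and were low throughout. MUC2 (chr11:1074875-1110511, plus strand), the main mucin of intestinal mucus, had 11, 12 and 1 counts in SW480 and 10, 188 and 16 counts in SW620. Replicate 2 of SW620 alone stood high, and the groups overlapped. The change was 3.14 ± 1.21 (adjusted p = 0.0825, edgeR), and 0.57 with an adjusted p of 0.650 without that library. Against 6 counts in PEO4 control, SW620 was 31.8 times as high by summed and scaled counts (95% interval of counting error 14.4 to 87.7). The edgeR fit gave a log2 change of 5.19 (adjusted p = 0.00604), and leaving out SW620 replicate 2 brought it to 2.45.

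MUC5AC (chr11:1157953-1201138, plus strand), the mucin of the gastric surface, had 9, 17 and 8 counts in SW480 and 19, 62 and 47 in SW620. In CPM these overlapped, at 0.411 to 0.994 and 0.925 to 3.34, with only SW620 replicate 1 inside the SW480 range. MUC5AC rose by 1.82 ± 0.59 on the log2 scale (adjusted p = 0.0455, edgeR). That call was lost with scaling by library totals (0.0596) and without SW480 replicate 1 (0.148), SW480 replicate 3 (0.149), SW620 replicate 2 (0.103) or SW620 replicate 3 (0.0542). PEO4 control had 0, 5 and 1 counts. SW620 was 19.0 times as high by summed and scaled counts (95% interval of counting error 8.51 to 52.9). The edgeR fit gave a log2 change of 4.32 (adjusted p = 0.00190). That change became 3.73 when control replicate 1 was left out and 6.09 when control replicate 2 was.

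MUC5B (chr11:1223066-1262172, plus strand), a gel-forming mucin of airways and glands, was the member that differed least between groups. The PEO4 means were 3.72 ± 2.52 CPM without and 3.28 ± 2.66 CPM with TGF-β, and those of SW480 and SW620 were 3.14 ± 2.70 and 3.13 ± 2.89 CPM. Single libraries ran from 0.974 to 6.41 CPM, so the spread within a group was larger than any difference between group means. No comparison passed the test, with edgeR adjusted p from 0.763 to 0.986, and the sign of its change turned under several alternatives. Its exons share 434 bases with the antisense gene MUC5B-AS1, and the counting strand is not given in the sources used here.

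SW620 against SW480 tested all 10 members, of which 4 rose (MUC1, MUC5AC, MUC6 and MUC13) and 0 fell. Over 20941 genes tested, 30.5% passed and 13.5% were higher in SW620. Replicates did not overlap for 4 members, MUC1, MUC6, MUC13 and MUC16, beside 43.9% of all genes. Without SW620 replicate 3 the count was 5, with MUC2 higher and MUC16 lower and MUC5AC no longer called. Without SW620 replicate 2 it was 4, with MUC12 lower and MUC5AC no longer called. MUC5AC passed the filter on low counts only through the SW620 libraries, so a high level there was a condition of its being tested. The fitted rises of MUC2 and MUC12 rested mainly on SW620 replicate 2. No conclusion is drawn from the median log2 change, which was 1.72 over the members and 0.03 over all genes tested. Beside these changes, the summed level of the 7 colorectal markers was 413 to 610 CPM in SW620 and 50.7 to 79.3 CPM in SW480, and that of 3 fibroblast markers 5.16 to 11.1 and 0.553 to 1.05 CPM. VIL1, HNF4A and LGR5 made up most of the colorectal sum in SW620, while the means of CDX2 were 18.3 CPM there and 18.8 CPM in SW480, and those of CDX1 were 0.124 and 0.180 CPM. LUM made up most of the fibroblast sum in SW620, at 7.06 CPM beside 0.270 CPM in SW480, while COL1A2 averaged 0.247 CPM in SW620 and 0.555 CPM in SW480. Their part in the result was not tested.

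In PEO4 with TGF-β against control, 5 members passed the filter on low counts, 0 rose and 1 fell (MUC6). In this comparison 2.26% of 19064 genes passed and 0.991% were lower with TGF-β. Replicates did not overlap for 2 of the 5 members (MUC6 and MUC16), beside 20% of all genes tested. The other 5 members had at most 15 counts in any PEO4 library and were not tested. MUC13, for example, had 9 counts over the control and 8 over the treated libraries, a control-to-treated ratio of 1.18 with a 95% interval of counting error from 0.403 to 3.50.

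Both comparisons with PEO4 control share its 3 libraries. SW480 against PEO4 control tested 8 members, of which 3 were higher (MUC1, MUC12 and MUC13) and 4 lower (MUC4, MUC6, MUC16 and MUC20), beside 61.9% of 21006 genes passing, 31.8% higher and 30.1% lower. SW620 against PEO4 control tested 9 members, of which 4 were higher (MUC1, MUC2, MUC5AC and MUC13) and 4 lower (MUC4, MUC6, MUC16 and MUC20), beside 56.9% of 20780 genes passing, 30.4% higher and 26.5% lower. Of the members tested, 7 and 8 did not overlap between the groups, beside 67.2% and 62.7% of all genes. The median absolute log2 change was 4.42 over the members and 0.84 over all genes in SW480, and 5.19 and 0.89 in SW620. Only members that passed the filter enter these medians. MUC1, MUC12 and MUC13 in SW480, and MUC1, MUC2, MUC5AC and MUC13 in SW620, passed it only through the SW libraries. High values there were a condition of their being tested. No conclusion is drawn from these medians, or from the counts of members called higher or not overlapping.

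**Figure D4:**
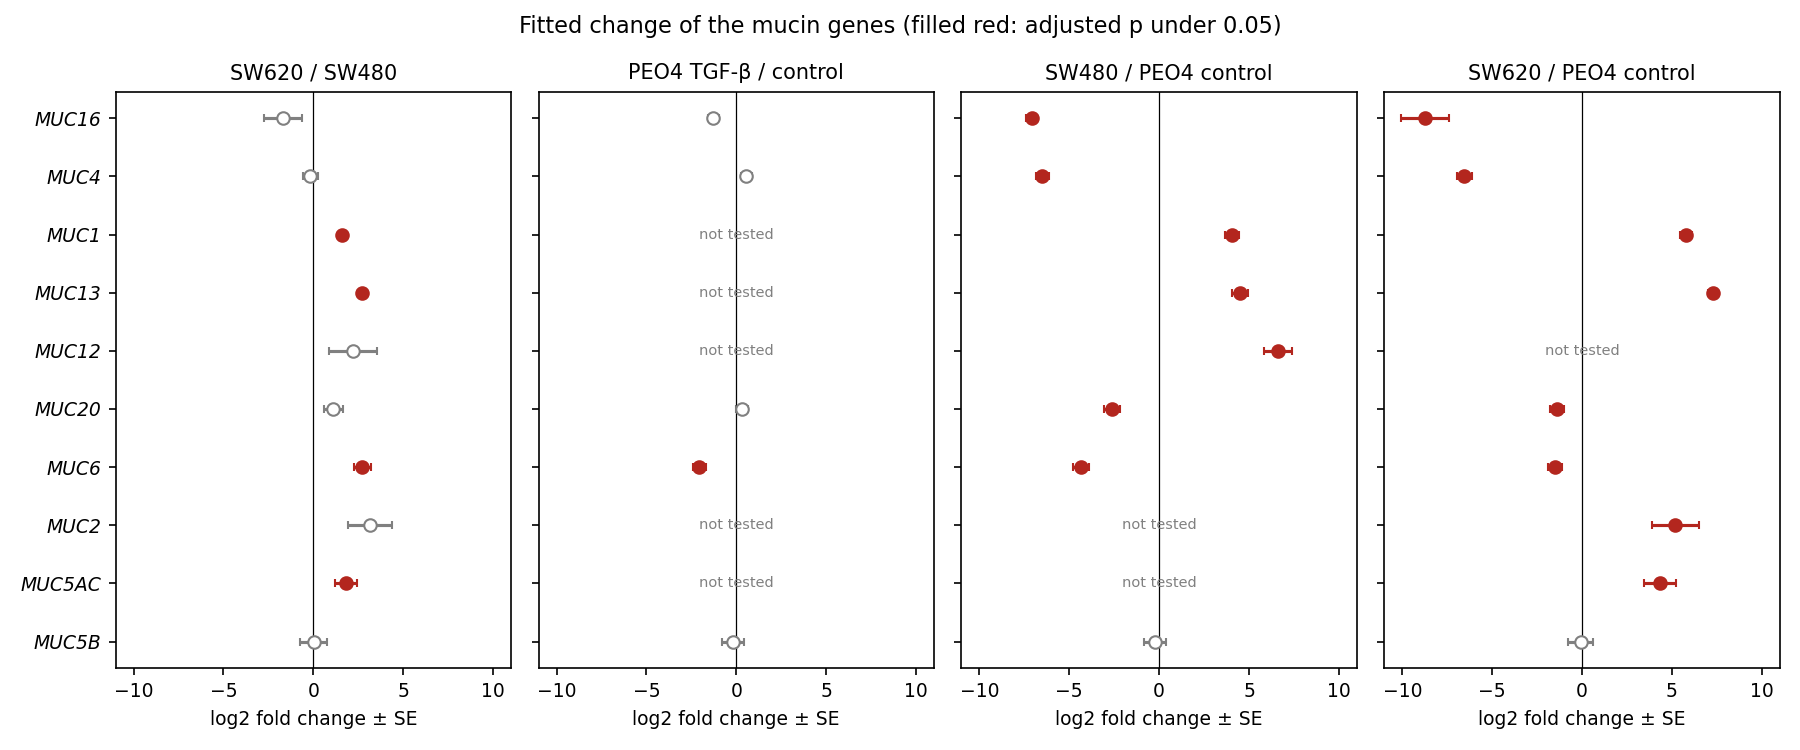
Fitted log2 fold change of each mucin gene with its standard error on the horizontal axis, in the 4 comparisons; filled red points had an adjusted p under 0.05 and open gray points did not. MUC1, MUC5AC, MUC6 and MUC13 are filled in SW620 against SW480, MUC6 alone is filled in PEO4 with TGF-β, and MUC16 and MUC4 have the lowest values in both SW lines against PEO4 control.

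Several members were highest in the same library. Among members with a group mean of at least 0.3 CPM, replicate 2 was the highest of the 3 libraries for 8 of 10 in SW480 and for 6 of 10 in SW620, beside 46.0% and 41.6% of all genes at that level. MUC2, MUC5AC, MUC5B, MUC6, MUC12 and MUC20 were highest in replicate 2 of both lines. These libraries had the lowest totals and protein-coding shares, as given above, and the part of library quality was not tested. In SW620 replicate 3, MUC1, MUC4, MUC13 and MUC16 were the highest. In PEO4, MUC4, MUC5B and MUC20 were highest in replicate 1 of both groups and MUC6 in replicate 2 of both.

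Of 13 other mucin genes, 12 were in the table, and 4, 2, 4 and 2 were tested in SW620 against SW480, treated PEO4 against control, SW480 against PEO4 and SW620 against PEO4. CD164, a small sialomucin of many cell types, averaged 303 CPM in untreated and 318 CPM in treated PEO4. Its SW480 mean was 156 CPM and its SW620 mean 191 CPM. MUC7 had 0 counts in all 12 libraries. In SW620 against SW480, 1 of the 4 rose and 1 fell, beside 13.5% and 17% of all genes. MUCL1, a small mucin-like secreted protein, fell from 5.26 ± 2.05 CPM in SW480 to at most 1 count per SW620 library (adjusted p = 8.39e-05, edgeR). OVGP1, the oviduct glycoprotein, rose from 0.686 ± 0.293 to 6.66 ± 1.07 CPM (adjusted p = 0.000237, edgeR). Neither of the 2 tested genes passed with TGF-β.

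Mucin O-glycans are started by GALNT enzymes and extended by others. Of the 19 enzyme genes, 16 were tested in SW620 against SW480, where 4 rose and 6 fell, beside 13.5% and 17% of all genes. GALNT5, an initiating enzyme, rose from 0.854 ± 0.449 to 29.3 ± 2.49 CPM (log2 change 5.13, adjusted p = 8.82e-06, edgeR). B3GNT3, which extends core 1 chains, rose by 1.52 ± 0.22 on the log2 scale (adjusted p = 0.000770, edgeR). ST3GAL1, which caps core 1 with sialic acid, fell from 13.4 ± 1.81 to 1.62 ± 1.02 CPM (adjusted p = 0.000546, edgeR). With TGF-β 0 of 17 passed in edgeR, with 7 at an unadjusted p under 0.05. Against PEO4 control, 5 were higher and 10 lower of 17 in SW480 (31.8% and 30.1% of all genes) and 5 and 8 of 17 in SW620 (30.4% and 26.5% of all genes). GALNT3, another initiating enzyme with 105 ± 18.1 CPM in PEO4 control, stood at 4.50 ± 0.423 CPM in the SW480 libraries and at 1.69 ± 0.349 CPM in those of SW620.

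Of 18 goblet and mucous cell genes, 9 were tested in SW620 against SW480, and 4 rose and 1 fell, beside 13.5% and 17% of all genes. TFF3, a trefoil peptide secreted with MUC2, rose from 0.394 ± 0.0843 to 24.4 ± 12.7 CPM (adjusted p = 2.26e-05, edgeR). The transcription factor genes FOXA3 and FOXA2 rose by 3.55 ± 0.35 and 3.48 ± 0.30 on the log2 scale (adjusted p = 9.09e-05 and 4.23e-05, edgeR). FOXA1, of the same family, was the gene that fell, from 1.96 ± 0.392 to 0.0659 ± 0.0275 CPM (adjusted p = 0.000273, edgeR). TFF3 and TFF2, both among the genes that rose, passed the filter on low counts only through SW620. FOXA1 passed it only through SW480. High values there were a condition of their being tested, so no conclusion is drawn from the counts that rose and fell. ATOH1 and SPDEF, which drive goblet cell fate and maturation, averaged at most 0.0364 and 0.171 CPM in any group. With TGF-β 0 of 4 passed in edgeR, with 0 at an unadjusted p under 0.05.

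Among 10 genes of mucin partners, MSLN, whose product mesothelin binds MUC16, was the only one that passed with TGF-β, of 8 tested, beside 2.26% of all genes. It fell from 649 ± 52.8 to 389 ± 20.6 CPM, by 0.77 ± 0.09 on the log2 scale (adjusted p = 0.00375, edgeR). In SW620 against SW480, 3 rose and 4 fell of 8 tested, beside 13.5% and 17% of all genes. EGFR, whose product associates with MUC1, fell from 142 ± 37.5 to 1.18 ± 0.444 CPM (adjusted p = 3.21e-06, edgeR). The receptor genes MET and ERBB3 rose by 3.02 ± 0.21 and 2.04 ± 0.19 on the log2 scale (adjusted p = 1.24e-05 and 7.54e-05, edgeR).

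For members with a mean of at least 10 CPM in some group, the 2 genes with the most similar pattern over the 12 libraries were sought among 11772 genes, by the root mean square difference of centred log2 CPM. MUC1 was most like ARHGAP4 (0.27) and CACNA2D4 (0.30), and MUC13 was most like ADGRG5 (0.29) and CHGB (0.32). MUC4 was most like CNTN3 (0.36) and THBD (0.41), and MUC20 was most like ALPK3 (0.37) and TRIM54 (0.41). MUC6 was nearest to SMAD6 (0.60) and TNNT2 (0.76). MUC12 was nearest to CFAP74 (1.29) and CAPN8 (1.30), so none of the genes searched followed its pattern closely. Genes with a mean under 10 CPM in every group were not searched. Among these was the mucin gene MUC3A, with 58, 49 and 57 counts in SW480 and 9, 72 and 14 in SW620.

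The authors' deposited table for the SW lines lists all 10 members and gives an adjusted p for 7 of them. In the authors' deposited table both the raw and the adjusted p are missing for MUC2, MUC12 and MUC16. By adjusted p, 4 members are under 0.05 there, MUC1, MUC5AC, MUC6 and MUC13. For PEO4, the authors' deposited table lists 5 members with 1 under 0.05, MUC6 at 0.00118, and MUC16 at 0.0621.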

How the data were processed

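The authors deposited whole-number counts per Ensembl gene for the 12 libraries, and a table per pair of groups with a signal per library, a log2 fold change and raw and adjusted p-values, per the file headers. Dividing each library's counts by a single size factor gave the deposited signal, with a largest relative deviation of 4.94e-10. Trimmomatic 0.36, STAR 2.5.2b, featureCounts, Subread 1.5.2, DESeq2 and GRCh38 are named in the submitters' processing notes. The annotation, strand setting and treatment of multiply mapped reads are not given in the sources used here.

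The 6 libraries of a comparison were analysed without the others, using R 4.3.3 and edgeR 4.0.16 (filterByExpr, TMM, glmQLFit and glmQLFTest, two-sided, Benjamini-Hochberg over all genes tested, threshold 0.05). The standard error is the log2 change over the square root of F. CPM uses TMM-scaled totals over all 12 libraries. Lengths, positions and shared 50-base words come from GENCODE 29, which held 56898 of the 57500 IDs. Intervals and the floor of 3 counts cover counting error only. An exact two-sided permutation test of 3 against 3 libraries cannot go below 0.1, so none was used. The edgeR step was tested on simulated data. No 2 replicates agreed within sampling noise (chi-square per degree of freedom 9.92 to 61.2 over 12 pairs).

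The members and lists were chosen with earlier results of these data known. All members are named, and of each other list up to 3 genes per comparison with the largest change, adjusted p under 0.05, no overlap and at least 5 CPM. In the comparisons with PEO4 control most of these are left out. Some listed genes passed the filter on low counts only through the group where they were high, so counts of listed genes called are a description. ATOH1, SPDEF, FOXA1, TFF2, CD164, MUC3A, MUC7, MUC20P1, MUC20-OT1 and the single marker genes were named after their values were seen. The measure of PEO4-like counts first used genes with at most 1 count in each of the other 5 SW libraries. That rule found 0 genes, so after seeing the data it was replaced by the 50 genes with the lowest mean rank, and then by the lowest 1% of candidates (41 of 4136), because a fixed number took in high-share genes when the minimum was 200 CPM. Alternatives were DESeq2 1.42.0, RLE scaling, library totals, no filter on low counts, all 12 libraries in 1 model, GC correction, a replicate block and leaving out each library. The genes with a pattern most like that of MUC16 are not reported here.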

Additional observations from a re-analysis of the deposited data

How the results depend on the processing

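Of 444 fits of single members under an alternative, 389 kept direction and side of the threshold, 23 passed newly, 10 lost the call and 22 changed sign. Sign changes were confined to MUC5B, MUC4, MUC12 and MUC20, and of these only MUC12 passed the test after turning. In SW620 against SW480, MUC5B turned to -0.003325 with all 12 libraries in 1 model and -0.044 with the replicate block, and ran from -0.996 to 0.98 leaving out 1 library. MUC4 there turned to 0.036 with GC correction and 0.015 with the block and GC correction, and ran from -0.48 to 0.17 leaving out 1 library, and MUC12 ran from -2.09 (without SW620 replicate 2) to 2.78. With TGF-β, the ranges were -1.11 to 0.42 for MUC5B and -0.0080 to 0.72 for MUC20. Against PEO4 control, MUC5B turned to 0.055 in SW480 and 0.18 in SW620 with library totals, and ran from -1.23 to 0.37 and from -1.27 to 0.49 leaving out 1 library. Causes were not tested. In SW620 against SW480, 4 members and 6385 genes were called, against 8 members with no filter on low counts, and 3 to 5 members and 4253 to 7419 genes leaving out 1 library. With TGF-β, 1 member and 431 genes were called, against 923 genes in DESeq2, 2 members with library totals, 3 members and 1457 genes with no filter, 165 genes with all 12 libraries, and 0 to 2 members and 72 to 1080 genes leaving out 1 library. The highest came without control replicate 1, with 67.6% of calls higher in place of 56.1%, and the lowest without control replicate 2. Replicate numbers were not taken as pairs, because the labels give no shared origin and 1 same-numbered correlation in each comparison was not over 0.1 (0.016, 0.67 and 0.57 in the SW lines, 0.29, -0.14 and 0.48 in PEO4). The evidence is mixed: replicates 2 and 3 of the SW lines and replicates 1 and 3 of PEO4 correlated best with their own number. A replicate block called 7 members and 10667 genes in the SW lines (7 and 11289 with GC correction) and 3 and 2102 in PEO4 (3 and 1800 with GC correction). With the block alone MUC2, MUC16 and MUC20 passed newly in the SW lines (edgeR adjusted p = 0.00336, 0.00149 and 0.000410), and MUC16 and MUC4 with TGF-β (edgeR adjusted p = 0.000480 and 0.0149). The share of SW calls higher in SW620 went from 44.4% to 55.8% with the block and GC correction. GC correction alone moved the median log2 change of all genes from 0.03 to 0.14, and library totals moved it from 0.05 to 0.28 in SW480 and from 0.14 to 0.31 in SW620 against PEO4 control, where the share of calls that were higher was 61.2% in place of 51.3% in SW480. The PEO4-like share in SW480 replicates 1 to 3 and SW620 replicates 1 to 3 was 0.222%, 0.191%, 0.180%, 0.159%, 0.0290% and 0.890% with at least 200 CPM, and 0.323%, 0.319%, 0.246%, 0.248%, 0.0792% and 1.12% with treated PEO4 as reference. With 50 genes it was 0.287% and 0.334% in SW480 replicates 1 and 2. SW620 replicate 3 was the highest in each. Members with fewer than about 3 counts in a library were below what this depth can resolve.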
